A study of Mus musculus with 4 samples.

Results

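The mRNAs of the cytosolic ribosomal proteins were followed in the lateral habenula of C57BL/6 mice, in 2 libraries from socially isolated and 2 libraries from group-housed animals. Members were all protein-coding genes with a symbol of the form Rpl or Rps plus a number, an optional letter a, l, x or y and an optional further number, together with Rpsa, Rplp0, Rplp1 and Rplp2, that held at least 10 counts summed over the libraries. This gave 81 genes of the 53465 gene identifiers in the count matrix, 49 of the large and 32 of the small subunit. A further pair of matching genes stayed below the minimum: Rpl39l, with 2 counts in all, and Rpl10l, with 0 counts, which allows up to 0.114 to 0.144 CPM (counts scaled to a common library total) in a library, by counting error alone. The lateral habenula, part of the epithalamus, passes signals of the forebrain on to monoamine cells of the midbrain, and the series asks what acute social isolation does to it. The groups differ by housing alone as far as the labels say, with no genotype or drug named, and they give no age, sex or length of isolation. Nor do they say whether a library is 1 animal or a pool. The spread between libraries that stands behind every p-value may therefore be technical in part or in whole.

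The ribosome is built from a large subunit, which joins amino acids and holds the exit tunnel of the new chain, and a small subunit, which decodes the mRNA. Most of their proteins are needed in equal copy numbers, and the mRNAs are abundant, short and stable, and usually begin with a run of pyrimidines, the terminal oligopyrimidine (TOP) tract. Through this tract the kinase complex mTORC1 controls how well these mRNAs are translated, by way of Larp1 and the 4E-binding proteins, and in neurons many of them are also carried into axons and dendrites.

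A pyrimidine run near the start is common among these genes, so windows of 30 bases around the longest run are shown for the members with the smallest p-values that had a RefSeq entry, leaving out Rpl17 and Rps14, for Rps15a, the 1 member higher in both isolated than in both group-housed libraries, and for Rpl11 and Rplp2 as partners in functional complexes. The windows are from RefSeq, build GRCm38.p6, 5′ to 3′ on the gene's strand. Capitals mark the longest run of C or T found between 30 bases before and 50 bases after the RefSeq start. The run begins at base 2 of the RefSeq transcript for Rpl18, at base 9 for Rps12 and at base 14 for Rpl11. It begins only at base 29 for Rpl37, 30 for Rpl9 and 35 for Rps21. For Rplp2 it begins before the start and crosses it, while for Rps15a and Rps25 it lies wholly before the start. Not every window therefore holds the start or a tract at the 5′ end of the RefSeq transcript.
Rpl9 (chr5:65391382-65391411, minus strand): cgaaagacgTTCTCTCTTTgccccatctac
Rpl11 (chr4:136053359-136053388, minus strand): gccggaagTCTCCCTCTCTCTTCCTgttct
Rpl18 (chr7:45718064-45718093, plus strand): gcaggccgCTCTTTCCCCgcccactccggc
Rpl37 (chr15:5116633-5116662, plus strand): cgggggtgCTTTCTCTTCCggtctctttgg
Rplp2 (chr7:141447638-141447667, plus strand): cgtcagcgTCTTCCTTTCgccgccggacgc
Rps12 (chr10:23787180-23787209, minus strand): accgccggCCTTTTCCCCTgccgccgccga
Rps15a (chr7:118116141-118116170, minus strand): ccggcccaCTCTCTTTCTgccatcttccct
Rps21 (chr2:180257399-180257428, plus strand): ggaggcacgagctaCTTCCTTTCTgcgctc
Rps25 (chr9:44407684-44407713, plus strand): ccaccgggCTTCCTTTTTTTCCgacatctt

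RefSeq promoter entries were matched for 61 of the 81 members. A run of at least 8 C or T on the gene's strand stood in the searched window of 48 of them (78.7%), against 32.3% of all 27025 genes with an entry. The same search on the opposite strand found such a run in 10 of the 61 (16.4%), against 35.2% of all genes. The letters CCGGAAG, a core recognised by ETS-family factors, stood on either strand of the 300-base promoter in 25 of the 61 (41.0%), against 9.93% of all genes, and a match read on the opposite strand (CTTCCGG) can overlap a pyrimidine run. Neither feature split the members by their change: the median log2 fold change was -0.10 in the 48 with a run and -0.10 in the 13 without one. Among the other tested genes the medians were 0.00 for the 3818 with a run and 0.00 for the 8499 without one. The members lie on 19 chromosomes, with 14 on chromosome 7.

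The libraries held 26428152 and 25985591 counts for the isolated and 20897605 and 25640860 for the group-housed mice. Of these, members took 1.002 and 1.066% in the isolated and 1.126 and 1.058% in the group-housed libraries. The 7 lateral habenula markers were all detected, 4 with a higher and 3 with a lower mean in isolated mice (median log2 fold change 0.01). Gpr151, a habenular receptor, stood at 425 and 426 CPM in isolated and 396 and 352 CPM in group-housed libraries, and Pou4f1, a habenular transcription factor, at 162 and 151 CPM against 136 and 129 CPM, while Gap43, a growth-cone protein, averaged lower in isolated mice (log2 fold change -0.14). All 9 markers of the neighbouring medial habenula averaged higher in isolated libraries (median log2 fold change 0.43), and 8 of the 9 of the thalamus averaged lower (median -0.39). The medial habenula markers Slc5a7 and Chrnb3 were the only 2 of all 17528 tested genes to pass (edgeR quasi-likelihood adjusted p = 0.0227 each). The part of these neighbouring regions in the results below was not tested.

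Ribosomal protein mRNAs were slightly lower in isolated mice almost throughout, but no member passed the test. By the quasi-likelihood test of edgeR, with p adjusted by Benjamini-Hochberg over all 17528 tested genes, 0 of 81 members passed at 0.05, against a background of 0.0114% (2 genes), and the smallest adjusted p of a member was 0.884. DESeq2, edgeR's exact test and limma-voom also called 0 members. At an unadjusted p below 0.05 the quasi-likelihood test held 4 members, all lower in isolated mice, against 2.26% of all tested genes. The mean was lower in isolated libraries for 79 of 81 members, and the median log2 fold change was -0.10, a ratio of 0.933, against 0.00 over all tested genes. The median standard error of a member was 0.07, so most single changes were about the size of their error. In bulk tissue, fewer cells rich in these mRNAs and fewer of these mRNAs per cell cannot be told apart.

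Summed over all members, the level was 10075 and 10456 CPM in isolated libraries and 11455 and 10544 CPM in group-housed libraries. The means were 10266 ± 270 CPM for isolated and 10999 ± 644 CPM for group-housed mice (SD, n = 2 each; CPM after TMM scaling). After TMM scaling both isolated libraries were below both group-housed libraries, but isolated replicate 2 and group-housed replicate 2 lay close together. Group-housed replicate 1 stood apart at the top. As a share of all counts, without TMM scaling, the groups overlapped. Isolated replicate 2 (1.066%) was then above group-housed replicate 2 (1.058%). The difference of the means was of the order of the spread between the group-housed replicates.

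Both subunits showed the same order of libraries. The 49 large-subunit members summed to 6043 and 6315 CPM in isolated and 6833 and 6339.6 CPM in group-housed libraries. The 32 small-subunit members summed to 4032 and 4141 CPM in isolated and 4622 and 4205 CPM in group-housed libraries. Both sums were lowest in isolated replicate 1 and highest in group-housed replicate 1. After TMM scaling the groups did not overlap, although the large-subunit sums of the second replicates were almost equal. As shares of all counts, without TMM scaling, the groups overlapped in both subunits. Isolated replicate 2 then held 0.6441% (large) and 0.4224% (small), against 0.6361 and 0.4219% in group-housed replicate 2. The ratio of large to small was 1.499 and 1.525 in isolated libraries and 1.478 and 1.508 in group-housed libraries, so the ratios of the groups overlapped. The median log2 fold change was -0.09 for the large subunit (range -0.36 to 0.12) and -0.12 for the small subunit (range -0.22 to 0.03). Whether the subunits differed in their change was not tested.

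**Figure D1:**
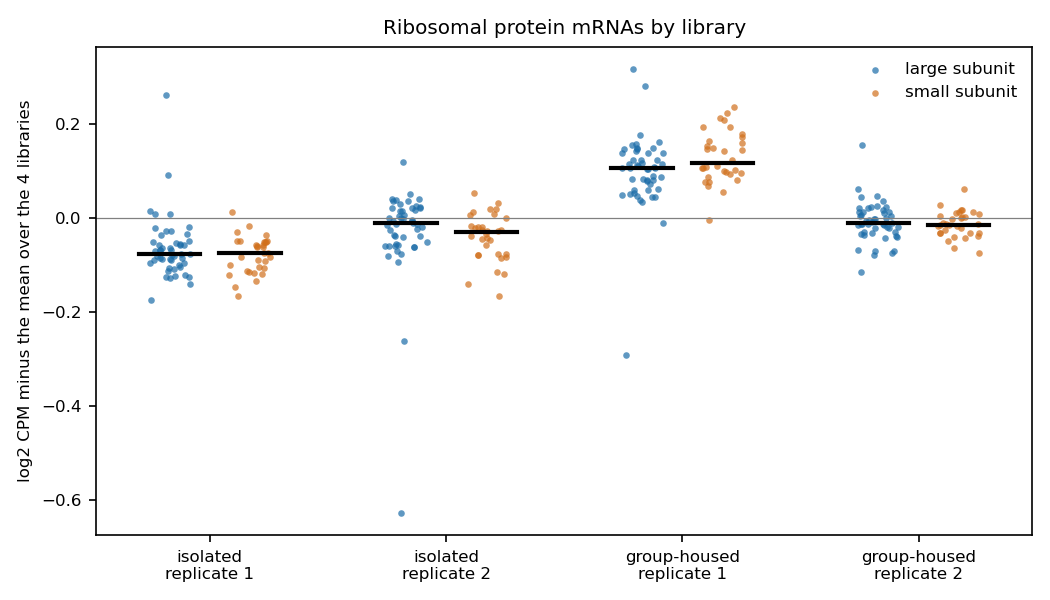
Each point is 1 of the 81 members in 1 library. The vertical axis gives log2 CPM minus that gene's mean over the 4 libraries, blue points are large-subunit and orange points small-subunit genes, and black bars are medians. Members sit highest in group-housed replicate 1 (median 0.11 over all members) and lowest in isolated replicate 1 (median -0.07), with the second replicates of both groups near 0.

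The pattern was set most by group-housed replicate 1, and less by isolated replicate 1. Without isolated replicate 1 the median log2 fold change of the members was -0.07, against -0.10 with all libraries, and 72 of 81 were lower. Group-housed replicate 1 had the highest level of 77 of the 81 members, and isolated replicate 1 the lowest level of 56. The median deviation from a gene's own mean was -0.07 and -0.02 in isolated replicates 1 and 2, and 0.11 and -0.01 in group-housed replicates 1 and 2. Both isolated libraries were below both group-housed ones for 38 members (46.9%), 20 of the large and 18 of the small subunit, against 16.3% of all tested genes. They were above for 1 member, Rps15a, against 17.4% of all tested genes. Since most members shared the order of the libraries, these counts are not of independent genes. Without group-housed replicate 1, 69 of 81 members were still lower in isolated mice, but the median log2 fold change shrank to -0.04 and 0 members were lower with an unadjusted p below 0.05, against 1.59% of all genes in that fit. Without group-housed replicate 2 the median was -0.17, and 25 members were lower with an unadjusted p below 0.05, against 2.17% of all genes in that fit. Scaled to the members' own total instead of to the whole library, an alternative chosen after seeing the data, 42 members were lower and 39 higher, and all genes shifted by 0.10. That scaling centres the members by construction, so it shows their spread around their own total and says nothing of the shift itself.

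**Figure D2:**
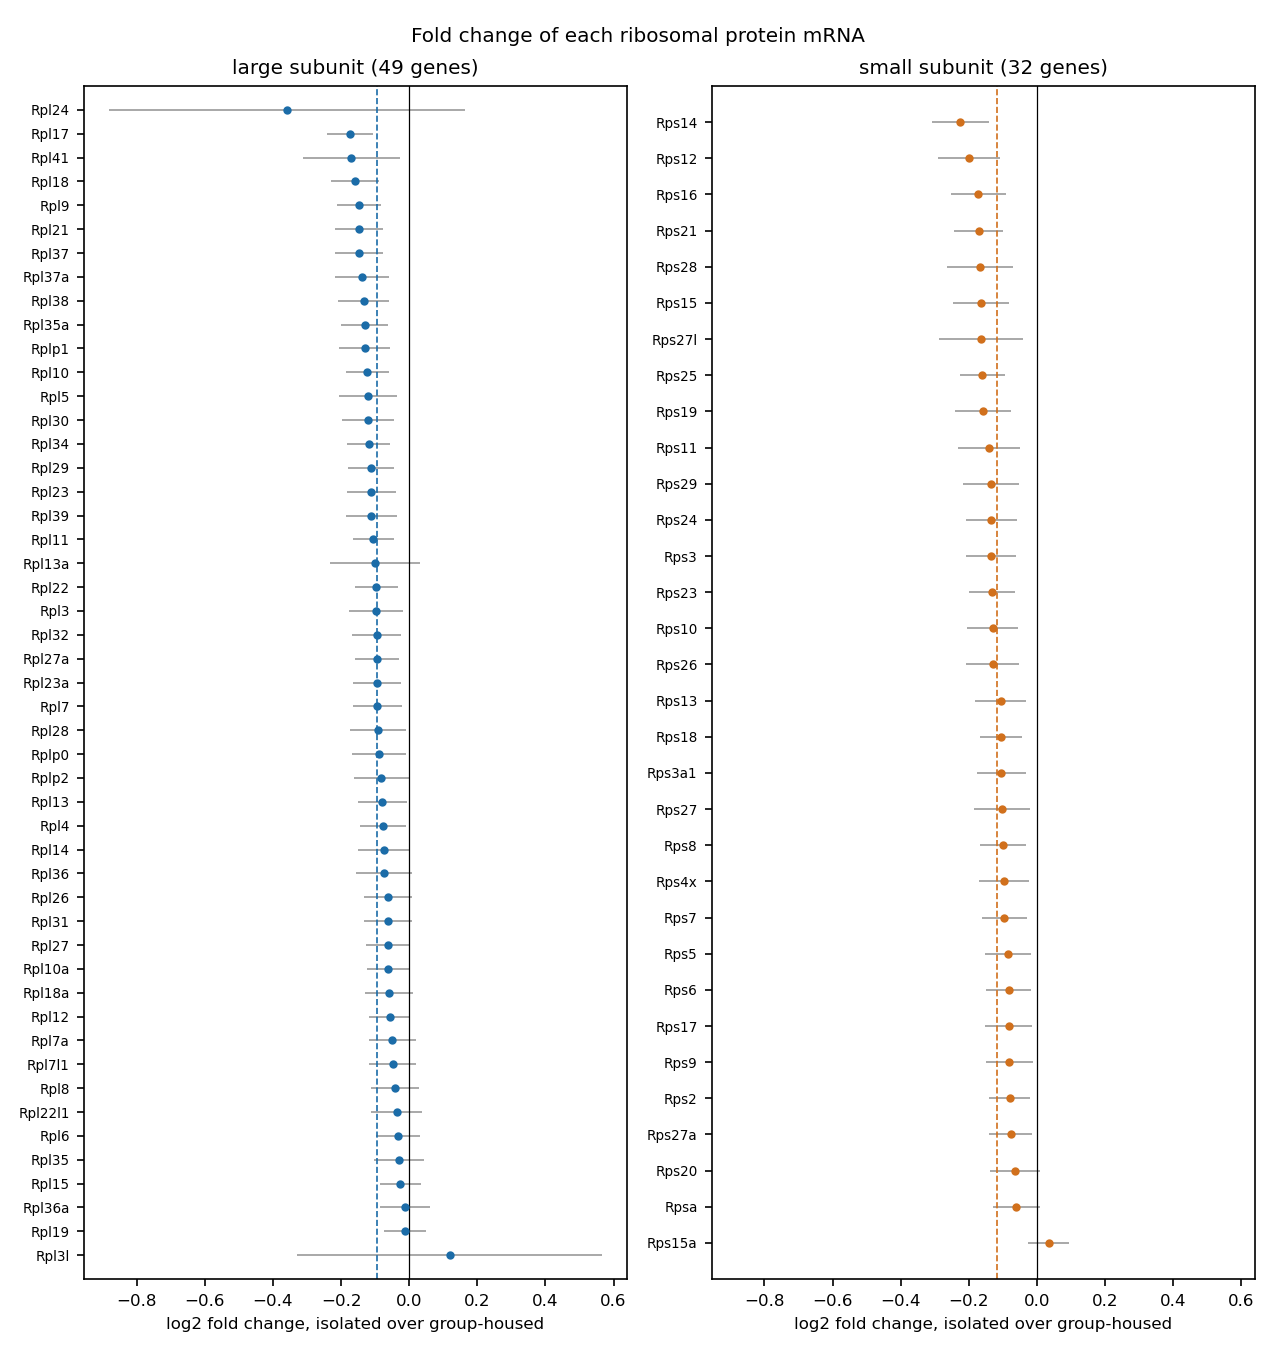
Log2 fold change of isolated over group-housed libraries for each member, large subunit on the left and small subunit on the right. Bars are 1 standard error, derived from the F statistic of edgeR's quasi-likelihood test, and dashed lines mark the subunit medians (-0.09 and -0.12). Nearly all points lie left of 0, most within a narrow band, and the wide bars belong to the scarce Rpl24 and Rpl3l.

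In the large subunit the members with the smallest p-values were Rpl17, Rpl9, Rpl18 and Rpl37. Rpl17 (ENSMUSG00000062328; GRCm38 chr18:74998558-75003381, plus strand), a protein at the exit of the peptide tunnel, had 161 and 159 CPM in isolated and 189 and 173 CPM in group-housed libraries. Its log2 fold change was -0.17 (SE 0.07, edgeR quasi-likelihood adjusted p = 0.910), and its groups did not overlap. Rpl9 had 174 and 177 CPM in isolated and 201 and 188 CPM in group-housed libraries (log2 fold change -0.15, SE 0.07). Rpl18 had 85.8 and 87.9 CPM in isolated and 102 and 91.6 CPM in group-housed libraries (-0.16, SE 0.07). Rpl37 had 89.2 and 95.6 CPM in isolated and 107 and 97.7 CPM in group-housed libraries (-0.15, SE 0.07). In each of these 4 genes both isolated libraries were below both group-housed ones, with group-housed replicate 1 at the top. The 1 large-subunit member with a higher mean in isolated mice was Rpl3l, which is described with the paralogues.

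In the small subunit the smallest p-values belonged to Rps14, Rps25, Rps21 and Rps12. Rps14 (ENSMUSG00000024608; GRCm38 chr18:60747098-60778546, plus strand), a protein of the platform, had 112 and 104 CPM in isolated and 136 and 116 CPM in group-housed libraries. Its log2 fold change of -0.22 (SE 0.08, edgeR quasi-likelihood adjusted p = 0.884) was the lowest in the subunit, and it did not pass. Rps25, a protein of the head used by some viral internal ribosome entry sites, had 106 and 106 CPM in isolated and 124 and 113 CPM in group-housed libraries (-0.16, SE 0.07). Rps21 had 60.5 and 64.7 CPM in isolated and 73.9 and 67.3 CPM in group-housed libraries (-0.17, SE 0.07). Rps12, a protein of the beak of the head, had 110 and 113 CPM in isolated and 141 and 116 CPM in group-housed libraries (-0.20, SE 0.09). None of these 4 overlapped between groups, though for Rps12 isolated replicate 2 and group-housed replicate 2 were close. The adjusted p of Rps25, Rps21 and Rps12 in edgeR's quasi-likelihood test was 0.937, 0.959 and 0.979.

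Rps15a (ENSMUSG00000008683; GRCm38 chr7:118104372-118116188, minus strand) was the 1 member for which both isolated libraries were above both group-housed ones. It had 167 and 167 CPM in isolated and 165 and 161 CPM in group-housed libraries (log2 fold change 0.03, SE 0.06, edgeR quasi-likelihood adjusted p = 0.9998). As a share of all member counts it made up 1.65 and 1.60% in isolated and 1.44 and 1.53% in group-housed libraries. Its share was thus higher in both isolated libraries, and of the 81 members it had the smallest p when scaled to the members' total (log2 fold change 0.13, SE 0.10, adjusted p = 0.812, same edgeR test). Its window holds a 10-base pyrimidine run that lies wholly before the RefSeq start, and so outside the RefSeq transcript.

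Each of the functional groups listed below averaged lower in isolated mice, and other parts of the ribosome were not summarised as groups. The P stalk and its base recruit the elongation factors, and all 4 of their genes averaged lower in isolated mice (median -0.09). Of the 4, 2 were wholly below the group-housed libraries, against 46.9% of all members and 16.3% of all tested genes. Rplp0, the stalk's anchor, had 169 and 189 CPM in isolated and 199 and 182 CPM in group-housed libraries. Rplp1 had 156 and 155 CPM in isolated and 181 and 159 CPM in group-housed libraries, and its partner Rplp2 had 72.1 and 70.3 CPM against 81.1 and 69.8 CPM. Rpl12, at the base of the stalk, had 108 and 107 CPM in isolated and 114 and 109 CPM in group-housed libraries. Rplp0 and Rplp2 overlapped between the groups, Rplp1 and Rpl12 did not, and all 4 were highest in group-housed replicate 1.

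Rpl5 and Rpl11 join the 5S rRNA in a particle that can also bind Mdm2 and so stabilise p53. Rpl5 had 154 and 181 CPM in isolated and 189 and 176 CPM in group-housed libraries, with overlap. Rpl11 had 131 and 134 CPM in isolated and 145 and 139 CPM in group-housed libraries, without overlap. Their log2 fold changes were -0.12 (SE 0.08) and -0.10 (SE 0.06). At the exit of the peptide tunnel, where chaperones and the signal recognition particle dock, all 9 genes averaged lower (median -0.09). Of these, 4 were wholly below, against the same 46.9% of all members and 16.3% of all tested genes. In the head of the small subunit all 14 averaged lower (median -0.13), and all 14 were highest in group-housed replicate 1. Of the 14, 8 were wholly below, again against 46.9% of all members and 16.3% of all tested genes. None of these genes passed the test.

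Paralogues varied in level. Of the 5 tested, 4 averaged lower in isolated mice, and the 1 that averaged higher, Rpl3l, had only 6 to 11 counts a library. Rpl3l, a paralogue of Rpl3 known from striated muscle, was scarce at 0.381 and 0.415 CPM in isolated and 0.292 and 0.427 CPM in group-housed libraries (log2 fold change 0.12, SE 0.45). Rpl7l1, the Rpl7 paralogue, had 46.2 and 48.3 CPM in isolated and 49.6 and 48.2 CPM in group-housed libraries. Rpl22l1, the Rpl22 paralogue, had 35.3 and 36.1 CPM in isolated and 37.4 and 35.8 CPM in group-housed libraries. Both overlapped between groups (log2 fold change -0.05 and -0.04, SE 0.07 each). Rps27l, a paralogue of Rps27 induced by p53 in human cells, had 9.17 and 9.17 CPM in isolated and 10.4 and 10.1 CPM in group-housed libraries, without overlap (-0.16, SE 0.12). Rps4l, annotated as a transcribed pseudogene and no member, had 13.9 and 14.1 CPM in isolated and 15.7 and 13.3 CPM in group-housed libraries.

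Ribosomal proteins with other symbols were read from a separate list. Fau, which encodes a ubiquitin-like protein fused to a small-subunit protein, had 107 and 105 CPM in isolated and 122 and 109 CPM in group-housed libraries (log2 fold change -0.12, SE 0.07), without overlap. Rack1, a signalling scaffold on the small-subunit head, had 157 and 166 CPM in isolated and 166 and 160 CPM in group-housed libraries (-0.01, SE 0.06), with overlap. Rps27rt, a copy of Rps27, had 1.22 and 0.604 CPM in isolated and 2.05 and 1.24 CPM in group-housed libraries (-0.83, SE 0.40). Rpl36al was below the count filter of the test, at 0.342 and 0.340 CPM in isolated and 0.341 and 0.272 CPM in group-housed libraries. Of these, the 3 genes that were tested did not pass.

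**Figure D3:**
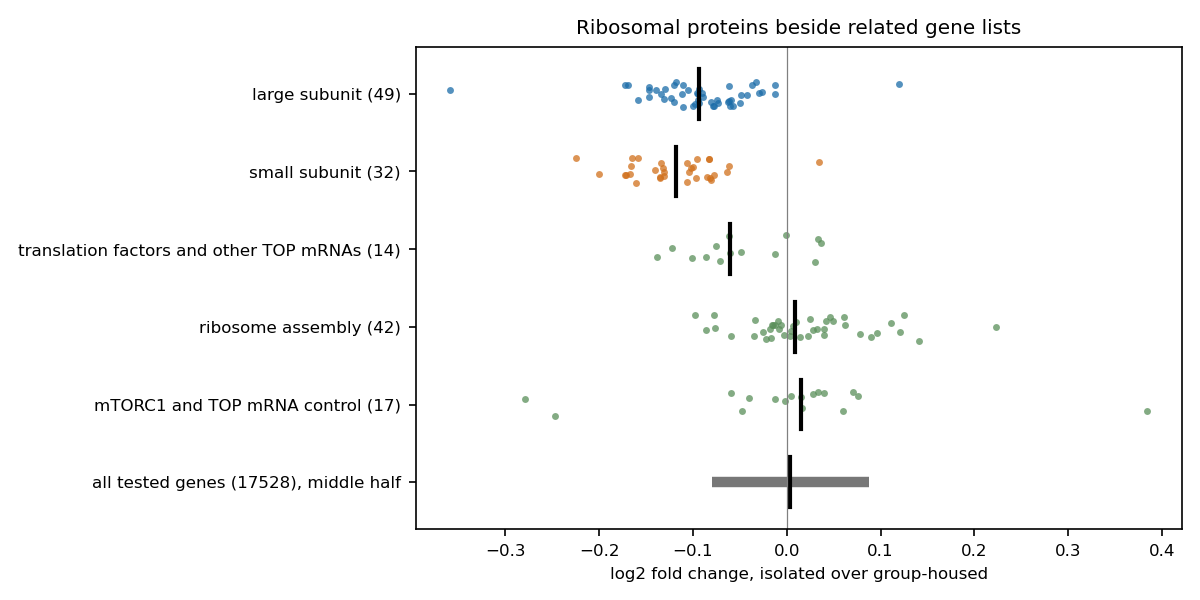
Log2 fold change of isolated over group-housed libraries for every tested gene of 5 lists, with black bars at the medians, and below them the middle part (lower to upper quartile) of all 17528 tested genes as a grey bar. Both subunits lie left of 0, the translation factors partly so (median -0.06), while assembly factors (0.01) and mTORC1 genes (0.02) centre near 0.

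Translation factors and other genes with TOP mRNAs lay between the ribosomal proteins and the rest. Of 14, 11 averaged lower and 3 higher in isolated mice (median log2 fold change -0.06), and none passed. The smallest p-values belonged to Tpt1, a growth-related TOP mRNA, and Eif3f, an initiation factor subunit. Tpt1 had 307 and 327 CPM in isolated and 367 and 331 CPM in group-housed libraries (-0.14, SE 0.08). Eif3f had 98.7 and 103 CPM in isolated and 110 and 106 CPM in group-housed libraries (-0.10, SE 0.06). Neither overlapped between groups. Eef1a1, the elongation factor that brings aminoacyl-tRNA to the ribosome, chosen after its values were seen, had 1174 and 1271 CPM in isolated and 1345 and 1250 CPM in group-housed libraries (-0.09, SE 0.09), with overlap.

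Genes of the machinery that builds ribosomes centred near 0. Of 42 tested assembly genes, 24 averaged higher and 18 lower in isolated mice (median 0.01), and none passed. Gar1, of the particle that makes pseudouridines in rRNA, had 9.59 and 10.8 CPM in isolated and 9.06 and 8.40 CPM in group-housed libraries (log2 fold change 0.22, SE 0.13). Dkc1, the enzyme of that particle, had 34.2 and 32.2 CPM in isolated and 31.2 and 29.9 CPM in group-housed libraries (0.12, SE 0.08). Both were higher in both isolated libraries without passing. Of 17 genes of mTORC1 and TOP mRNA control, 10 averaged higher and 7 lower (median 0.02), and none passed. Mtor, the kinase itself and also chosen after its values were seen, had 174 and 165 CPM in isolated and 168 and 166 CPM in group-housed libraries. Deptor, an inhibitor of mTOR, had 24.7 and 19.0 CPM in isolated and 27.6 and 25.4 CPM in group-housed libraries (-0.28, SE 0.12), without overlap. Eif4ebp1, a repressor of cap-dependent translation, had 0.989 and 1.21 CPM in isolated and 0.779 and 0.894 CPM in group-housed libraries (0.38, SE 0.31), also without overlap.

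Other features also differed between the libraries. Among tested protein-coding genes that are no members, the 444 with a principal transcript under 750 bases showed a median log2 fold change of -0.04 and stood highest in group-housed replicate 1 (median deviation 0.05), while those of 6000 bases or more had a median of 0.02. The 8 microglia markers summed to 361 and 357 CPM in isolated and 416 and 377 CPM in group-housed libraries, and 7 of them were highest in group-housed replicate 1. The 6 astrocyte markers summed to 3412 and 3403 CPM in isolated and 3738 and 3531 CPM in group-housed libraries. Of these, 5 averaged lower and 1, Gfap, higher in isolated mice (log2 fold change 0.14), and Aqp4 was highest in isolated replicate 2. The 8 oligodendrocyte markers summed to 9769 and 11465 CPM in isolated and 12846 and 11914 CPM in group-housed libraries, all 8 lowest in isolated replicate 1. No marker of these 3 lists was at 0. In the other direction, the 8 tested ependyma markers summed to 65.0 and 134 CPM in isolated and 64.0 and 60.2 CPM in group-housed libraries. All 8 were highest in isolated replicate 2. The part of transcript length and of these cell types in the ribosomal protein result was not tested. Among members, the log2 fold change had a Spearman rho of 0.29 with principal transcript length and 0.13 with mean CPM, across 81 genes that share their libraries.

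The levels of single members spanned a wide range, although most of their proteins are needed in equal numbers. Per kilobase of merged exons the median was 62.2 CPM in the large and 66.1 CPM in the small subunit, and the quartiles over all members differed by a factor of 2.52. In the large subunit the highest mean levels over the libraries were those of Rplp1 (326 CPM per kb), Rpl23a (188), which the signal recognition particle docks on, and Rpl4 (187), which lines the tunnel. In the small subunit they were Rps15 (264 CPM per kb), Rps3a1 (228) and Rps29 (129). The lowest in the small subunit were Rps27l (11.9), Rps19 (19.2), whose human gene is mutated in Diamond-Blackfan anaemia, and Rps20 (22.2). The order depends on the length used: between merged exons and the principal transcript the Spearman rho of the ranks was 0.65, and with the principal transcript the quartiles differed by a factor of only 1.69.

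**Figure D4:**
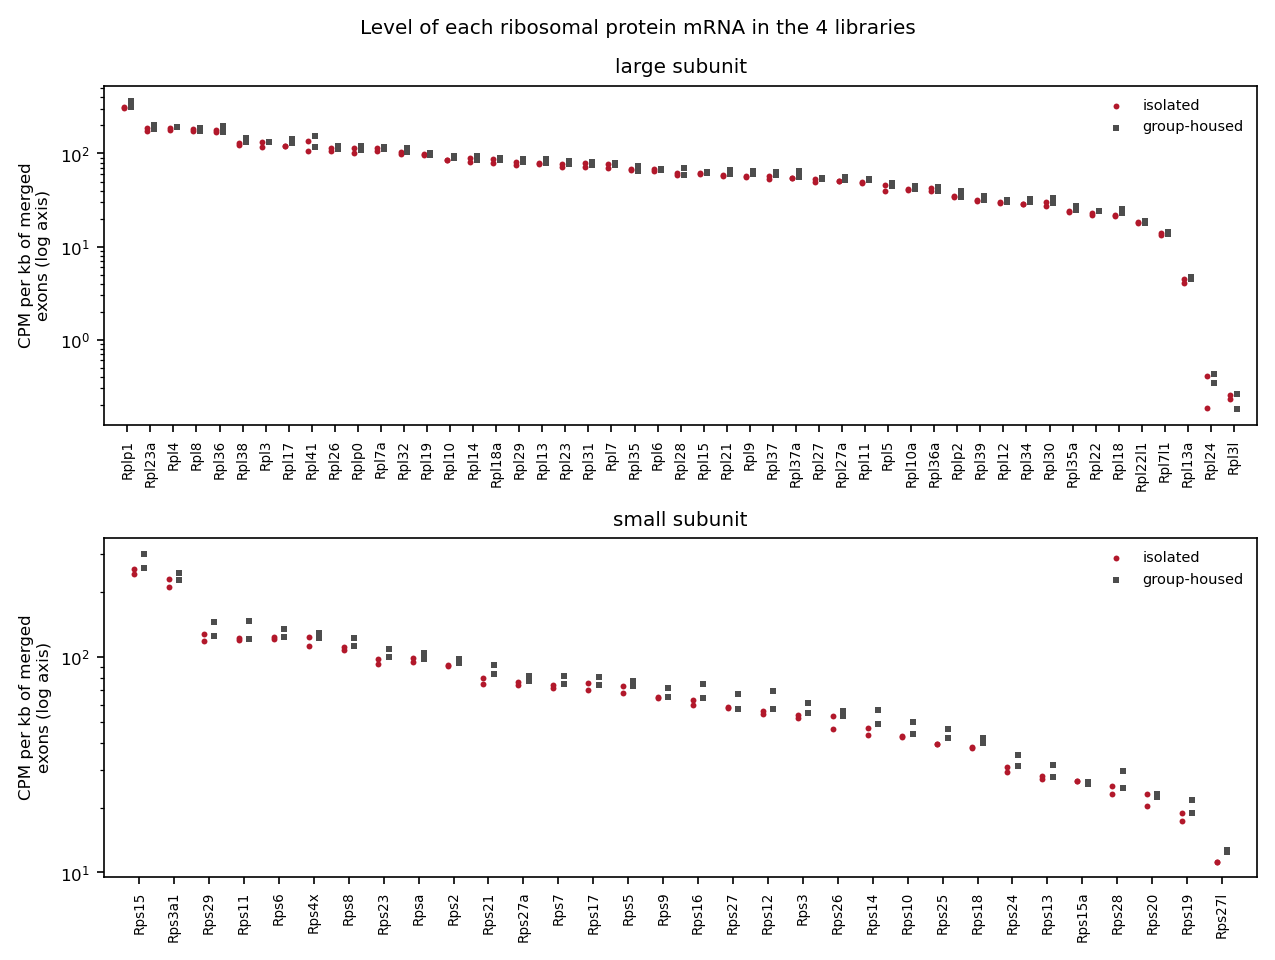
CPM per kilobase of merged exons on a log axis for each member in each library, ordered by mean level, with isolated libraries as red circles left of group-housed libraries as grey squares. Differences between genes are far larger than those between groups, and Rpl13a, Rpl24 and Rpl3l fall away from the other large-subunit members.

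At the low end of the large subunit stood Rpl3l (0.231 CPM per kb), Rpl24 (0.339) and Rpl13a (4.45). Rpl24, a protein of the bridge between the subunits, had 0.419 and 0.189 CPM in isolated and 0.438 and 0.350 CPM in group-housed libraries. Rpl13a, known in human myeloid cells for a second role in silencing mRNAs, had 8.60 and 9.55 CPM in isolated and 9.98 and 9.48 CPM in group-housed libraries. In the annotation used here, 71.5% of the principal transcript of Rpl24 is shared on the same strand with another annotated gene, Gm28037, and 59.3% of that of Rpl13a with Gm45713, both of which had 0 counts in every library. Rps10, a protein of the small-subunit head, shares 91.6% with RPS10-NUDT3. Rps10, chosen like Rpl21 after its values were seen, was not scarce and had 99.6 and 97.8 CPM in isolated and 115 and 101 CPM in group-housed libraries. No source used here says how the counting treated exons of more than 1 gene, so the levels of these genes are uncertain, and the part of the overlap in them was not tested. Near-identical annotated copies exist for 76 of the 81 members, with a median of 5 per member and 56 for Rpl21, and no source used here says how reads that match both were counted. The median log2 fold change was -0.08 in the 15 members with at most 1 copy, -0.10 in the 17 with at least 10 copies, and -0.10 in the 68 without any overlapping exon on the principal transcript.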

How the data were processed

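Every value here starts from the raw counts per gene that the authors deposited as 1 matrix of 4 columns. Their normalised files were not used. Per the labels' protocols, Trizol was used to extract the RNA and a stranded mRNA kit to make the libraries. Per the submitters' processing notes, CASAVA, TopHat2 2.1.1, HTSeq and edgeR were used, with genome build GRCm38. No source used here states the annotation release, the strand setting or the handling of reads with several matches.

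GENCODE M21 (GRCm38) gave symbols for 53274 of 53465 identifiers, and also lengths and overlaps. Near-identical copies were found with BLAST 2.17.0, as transcripts at least 95% identical over at least 90% of a member's coding sequence. Counts were scaled by TMM (CPM). The groups were compared in R 4.3.3 by edgeR 4.0.16 (glmQLFit and glmQLFTest, 2-sided, no covariate) over the 17528 genes passing filterByExpr, with Benjamini-Hochberg adjustment at 0.05. All 81 members were tested. Lists are described by counts and medians and were not tested. Total counts of 20897605 to 26428152 per library set the counting precision. With 2 libraries a group the spread between a gene's own replicates rests on 2 residual degrees of freedom. The test adds variance information shared across genes, with a median of 6.55 prior degrees of freedom.

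Within each subunit, the members named are the 4 with the smallest p in each direction (fewer where fewer exist) and the 3 highest and 3 lowest per length. All members of the stalk, 5S RNP and paralogue lists and those of the other-symbol list are named too, except 1 that is not reported here, as are the 2 genes with the smallest p in the translation factor, assembly and mTORC1 lists. Alternatives were other tests and scalings, other filters, a replicate block and leaving out each library. The members and lists were chosen with earlier results of these data known.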

Additional observations from a re-analysis of the deposited data

How the results depend on the processing

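No member passed in any alternative run (0 called in each, DESeq2, edgeR's exact test and limma-voom included), and the large and small subunit medians stayed below 0 in all of them except scaling to the members' own total. That scaling, chosen after seeing the data, centres the members by construction. It gave medians of 0.0048 and -0.019 and 100 genes called among all tested. Both isolated libraries were then below both group-housed ones for 10 of 81 members, against a background of 4.27% of all tested genes. With library totals only, without TMM scaling, 28 members had both isolated libraries below both group-housed ones, against 12.7% of all tested genes. With TMM scaling it was 38 members, against 16.3%. Over all tested genes the count called was 2 in edgeR's quasi-likelihood test, 52 in DESeq2, 82 in edgeR's exact test and 64 with a replicate block. With the block 13 members were lower with an unadjusted p below 0.05, against 3.90% of all genes in that fit (smallest adjusted p of a member = 0.205 in the quasi-likelihood test). The labels do not say that equal replicate numbers mark shared animals or days, and deviations of same-numbered libraries had a correlation of 0.14 over all genes and 0.39 over the members. With 2 pairs this cannot show a pairing, and the numbers were not taken as one. Leaving out 1 library in turn, all-gene calls ranged from 1 to 221 (221 without isolated replicate 1), large-subunit medians from -0.16 to -0.03, small-subunit medians from -0.20 to -0.05, and members wholly below from 40 to 78, where 31.1 to 35.2% of all tested genes were wholly below. The lone library of a group is then assumed to vary like the other group. Scaling to the members' own total turned named members such as Rpl12 and Rpl22l1 above 0 (log2 fold change 0.042 and 0.060). It is left out of the following count. Of 362 other alternative values of the 28 named members, 358 kept their direction and side of the threshold and 4 turned round. Rpl24 was 0.10 without isolated replicate 2, Rpl3l -0.10 and Rplp2 0.029 without group-housed replicate 1, and Rps20 0.020 without isolated replicate 1. Over the leave-outs they ranged from -1.03 to 0.10, from -0.10 to 0.43, from -0.20 to 0.03 and from -0.15 to 0.02. The cause was not tested. With 2 libraries a group, changes of the size seen here are about the standard error of a single gene.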
